A study of Mus musculus with 18 samples.

Results

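Mouse neural cultures after 1 week of differentiation (3 libraries) were compared with the proliferating neurospheres (NSPs, 3 libraries) from which such cultures are made, gene by gene, in total RNA depleted of ribosomal RNA. These 6 libraries were chosen by their labels from the 18 of the series, and 20067 of the 54838 genes in the count table had enough reads to be tested. The NSPs came from the ventricular zone of brains of wild type C57BL/6J mice at embryonic day 14, each culture from a single brain, and were kept in B27 medium with 20 ng/ml epidermal growth factor (EGF). For the 1 week group, NSPs were plated on poly-L-ornithine, EGF was withdrawn, and the medium was replaced by DMEM with 10% fetal bovine serum. No tumour necrosis factor was added to either group, no gene was deleted or introduced in any of the 18 libraries, and both groups share strain and embryonic age. The remaining libraries were taken at 24 h or 72 h of differentiation, 3 without and 3 with tumour necrosis factor at each time, and the untreated ones are given beside the 1 week values where they place them in time. The labels give the cell type of the 1 week libraries as astrocyte and that of the NSPs as NSP, while the titles use the word astrocytes for all of them. They do not say which brain gave which library, so the p-values measure the spread between these libraries.

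Neurospheres are floating clusters of neural stem and progenitor cells that keep dividing because EGF, acting through its receptor and the ERK kinases, holds them in cycle. When EGF is replaced by serum the cells attach, leave the cell cycle and take up a glial programme, with STAT3 and BMP signals among the known inducers of Gfap, the intermediate filament protein most used to mark astrocytes. Astrocytes in the brain clear glutamate and potassium, supply lipids and lactate to neurons, and make extracellular matrix.

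Total counts per library ranged from 13878690 to 22549627 at 1 week and from 17326245 to 19045824 in NSPs. Within the NSPs, replicate 1 stood apart: its counts differed from those of the other libraries by a chi-square per degree of freedom of 52.8 and 46.1, against 4.08 between replicates 2 and 3. At 1 week, replicate 2 stood apart less strongly (21.4 and 24.6, against 5.62). In NSP replicate 1 transcripts of the Y-linked gene Eif2s3y were at 3.94 CPM (counts scaled to library size, here with TMM factors), against 18.4 and 17 in the other NSP libraries, and at 6.18, 4.60 and 5.28 at 1 week, with a mean of 13.7 at 72 h. Eif2s3y (log2 -1.29, adjusted p 0.0151) and Kdm5d (-0.93, 0.0407), also Y-linked, were called lower at 1 week. They belong to a list of 6 sex-linked genes, of which the other 4 were not called. The 6 together were at 815 to 1326 CPM at 1 week and 725 to 1096 CPM in NSPs, most of it not from these 2 genes. Eif2s3y missed the threshold without 1 week replicate 2, NSP replicate 2 or NSP replicate 3 (adjusted p up to 0.084), and Kdm5d without any of the 6 libraries except NSP replicate 1 (up to 0.179). The part of these gaps in the results was not tested. Several values are also given without NSP replicate 1. The counts came from a stranded kit, but the strand setting of the counting is not given in the sources used here, so that reads of a gene and of one on the opposite strand cannot be told apart.

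Of the 20067 genes tested, 58.6% differed between 1 week and NSPs at an adjusted p under 0.05, with 29.6% of all genes tested higher at 1 week and 29.1% lower. With a change of at least 2-fold as a further condition, 4091 genes were higher (20.4%) and 2929 lower (14.6%), 35% in all. The 3 libraries at 1 week lay above all 3 NSP libraries for 32.9% of the genes tested and below them for 31.7%. Changes of at least 32-fold were fitted for 258 genes that rose and 227 that fell. The median log2 fold change over all genes tested was 0.059, and it was 1.41 for the genes that rose and -1.004 for those that fell. Because most genes moved, a count of called genes in any group below has to be read against these shares. Of the genes that rose, 51.1% had their highest untreated mean at 1 week, 27.8% at 72 h and 21.1% at 24 h. Of those that fell, 54.5% were lowest at 1 week.

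**Figure D1:**
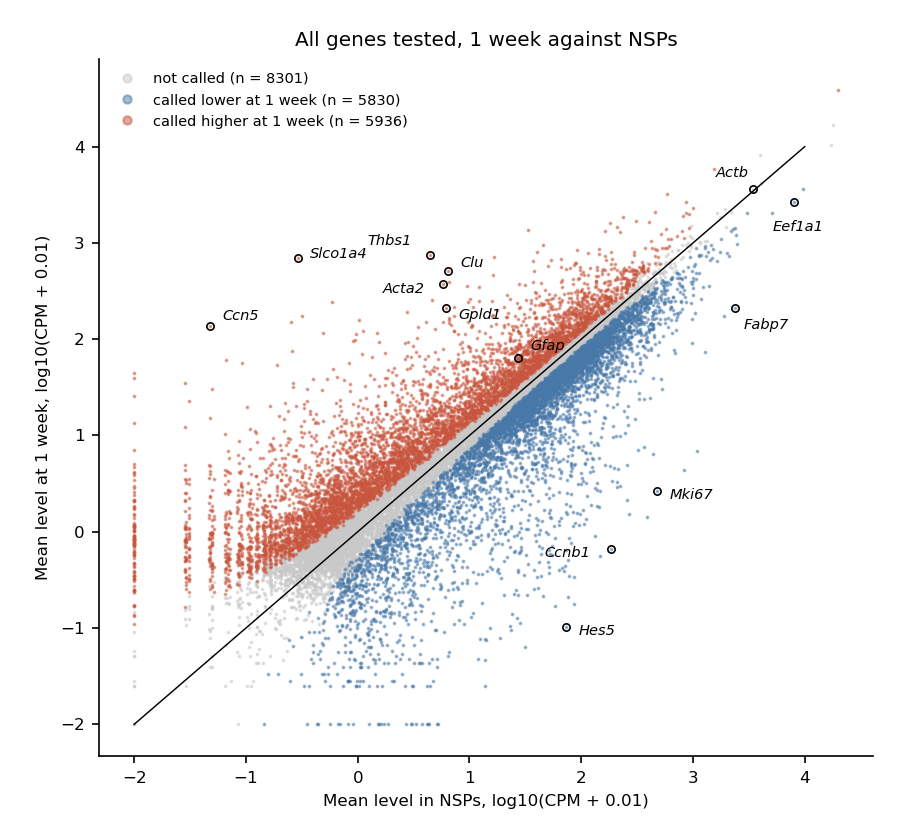
Mean level in NSPs (x axis) against mean level at 1 week (y axis) for every gene tested, as log10 of CPM plus 0.01, n = 3 libraries per group, with the line of equal level. Genes called higher at 1 week lie above the line and genes called lower lie below it. Slco1a4 and Ccn5 stand far above the line, Hes5, Ccnb1 and Mki67 far below it, and Gfap just above it among genes not called.

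**Figure D2:**
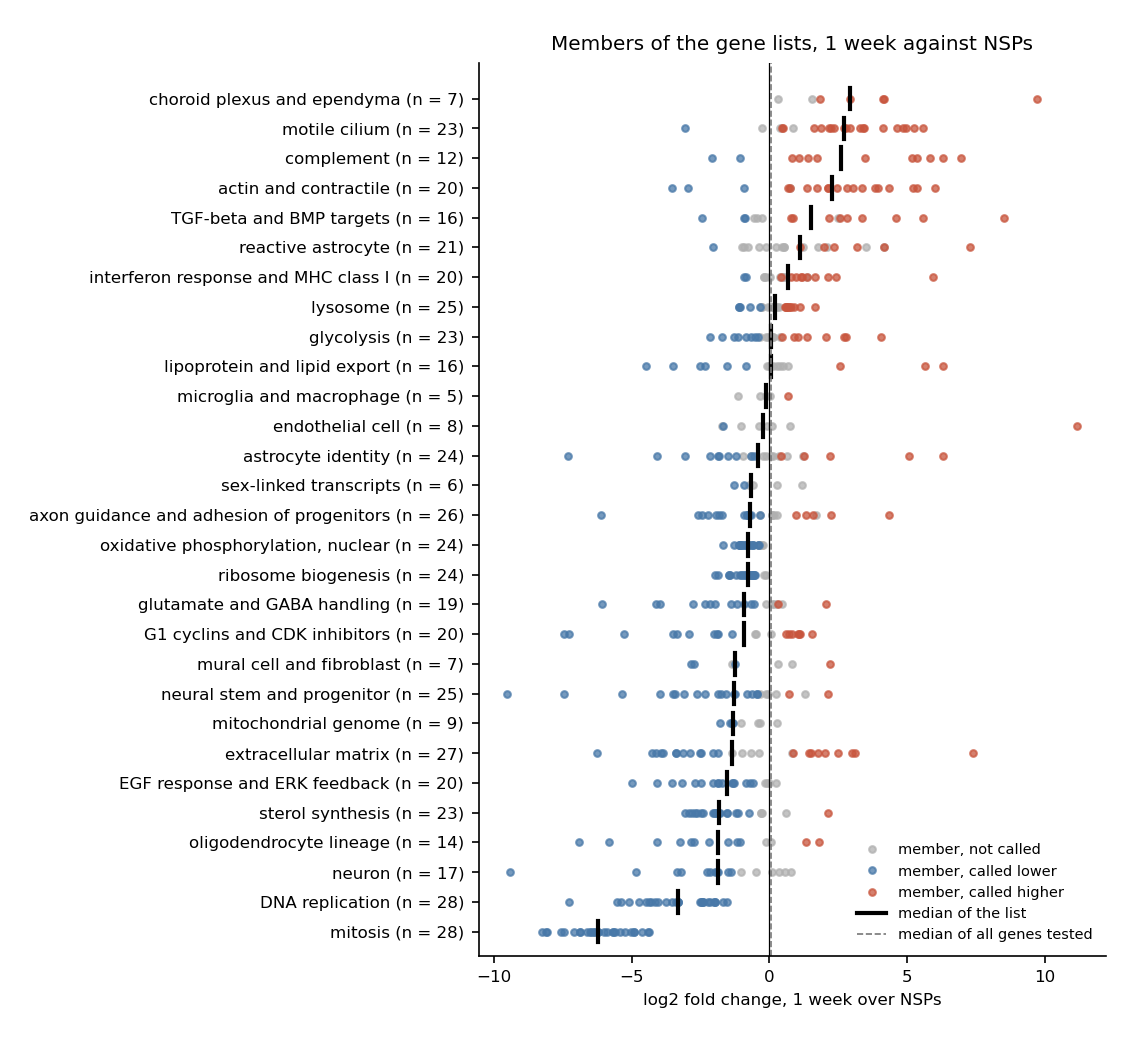
Log2 fold change of 1 week over NSPs (x axis) for each tested member of 29 gene lists (rows, with the number tested), coloured by call. Black bars mark list medians and the dashed line the median of all genes tested, 0.059. The DNA replication and mitosis medians lie at -3.33 and -6.22, and the medians for motile cilium and actin genes at 2.70 and 2.29.

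The cell division programme of the NSPs was at a small remainder of its level after 1 week. All 28 genes of mitosis fell, with a median log2 fold change of -6.22, and all 28 genes of DNA replication fell, with a median of -3.33. Mki67 (ENSMUSG00000031004, chr7:135689784-135716361, minus strand, GRCm38), which encodes a protein that coats mitotic chromosomes and marks cycling cells, was at 2.61, 3.01 and 2.32 CPM at 1 week and at 493, 457 and 471 CPM in NSPs. All 3 libraries at 1 week lay below the NSPs, with a log2 fold change of -7.47 ± 0.52 (SE) and an adjusted p of 9.06e-10. In bulk RNA, fewer cycling cells and less of a transcript in each cell cannot be told apart. The summed level of the mitosis list ranged from 61.5 to 71.9 CPM at 1 week and from 3545 to 5447 CPM in NSPs. In the direct comparison of 1 week with 72 h, in which 6.63% of all genes tested were called, Cdk1, the kinase that drives entry into mitosis, was the only called difference between 1 week and 72 h (log2 -1.21, adjusted p 0.0314) on either list.

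Among the regulators of mitosis, Ube2c, the ubiquitin-conjugating enzyme of the anaphase-promoting complex, was at 0.265, 0.219 and 0 CPM at 1 week and at 73.8, 50.9 and 48.9 CPM in NSPs (log2 -8.27 ± 0.44, adjusted p 2.77e-11). Ccnb1, the B-type cyclin that activates Cdk1, was at 0.662, 0.603 and 0.704 CPM against 248, 148 and 157 CPM (log2 -8.12 ± 0.45, adjusted p 4.36e-11). In both genes NSP replicate 1 was the highest library and the groups were far apart. For DNA replication, Uhrf1, which carries DNA methylation through S phase, fell by 7.26 ± 0.48 on the log2 scale and Rrm2, the small subunit of ribonucleotide reductase, fell by 5.55 ± 0.42. Rrm2 stood at 231 CPM in NSP replicate 1 and at 87.8 and 80.6 CPM in the others, and without that library its log2 fold change was -4.89. Without NSP replicate 1 all 28 replication genes still fell, with a median of -2.90, and all 28 mitosis genes with a median of -6.05. The log2 fold changes of the replicative helicase subunits Mcm2 to Mcm7 ran from -1.54 for Mcm6 to -4.73 for Mcm5.

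The promoters of mitotic genes are known to carry CCAAT boxes and CHR elements (TTTGAA). The CHR elements are known to take part in shutting such genes off as cells leave the cycle. RefSeq start sites on GRCm38.p6 were matched for 23 of the 28 mitosis genes. In the 250 bases before the start, on either strand, 19 of these 23 genes (82.6%) held CCAAT and 8 held TTTGAA, while 33.8% and 16% of all 32851 RefSeq promoter windows did. For DNA replication 22 genes were matched, of which 13 held CCAAT and 3 TTTGAA. These are counts of letters, with no test. Here and for the lists below, a gene counted if any of its windows held the motif, while the share of all promoters is per window. Below are the sequences before Ccnb2, which fell by 4.91 on the log2 scale, and before Ube2c. They are printed on the gene's strand, with CCAAT and TTTGAA (or their reverse complements) in capitals. The Ube2c sequence runs up to the first base of the annotated gene. That of Ccnb2 ends at base 70421555, a few bases before the annotated gene, which begins at base 70421547. The TTTGAA match of Ube2c lies in the 31 bases of its window that fall inside the annotated gene and are not printed. Both were chosen after their values were seen.
Ccnb2, chr9:70421555-70421804, minus strand: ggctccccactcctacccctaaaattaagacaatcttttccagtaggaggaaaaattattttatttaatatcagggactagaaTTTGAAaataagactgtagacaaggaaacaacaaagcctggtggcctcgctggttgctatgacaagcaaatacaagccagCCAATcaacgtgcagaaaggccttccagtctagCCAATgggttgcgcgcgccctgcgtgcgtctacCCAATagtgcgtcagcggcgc
Ube2c, chr2:164769679-164769897, plus strand: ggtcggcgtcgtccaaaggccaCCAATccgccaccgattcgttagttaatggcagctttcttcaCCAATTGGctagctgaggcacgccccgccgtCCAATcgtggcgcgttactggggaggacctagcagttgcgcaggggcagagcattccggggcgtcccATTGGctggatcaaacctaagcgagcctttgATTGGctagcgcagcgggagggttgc

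Genes that control exit from the cycle went both ways. Of 20 cyclins, CDK inhibitors and related genes, 7 rose and 10 fell. Cdkn1a, which encodes the CDK inhibitor p21, was at 199, 201 and 162 CPM at 1 week and at 97.7, 90 and 71.1 CPM in NSPs (log2 1.12 ± 0.25, adjusted p 0.000732), with no overlap. Cdkn2b, the INK4-family inhibitor p15, rose by 1.54 ± 0.20 and its neighbour Cdkn2a by 1.05 ± 0.21 on the log2 scale. Other inhibitors moved the opposite way, with Cdkn1c (p57) at -3.35 ± 0.36 and Cdkn2c (p18) at -1.86 ± 0.18. The retinoblastoma-family genes Rb1 (0.59) and Rbl2 (0.72) rose while Rbl1 fell (-2.94). Ccnd1, the D-type cyclin that responds to growth factors, was at 40.5, 31.7 and 46.1 CPM against 671, 320 and 332 CPM (log2 -3.48 ± 0.41, adjusted p 9.15e-07). Its level at 1 week was nevertheless above that at 72 h, where the mean was 11 CPM (log2 1.84, adjusted p 0.00896). Cdk6 and Cdkn1a were also higher at 1 week than at 72 h (log2 2.56 and 1.19, adjusted p 0.00127 and 0.00564). With Ccnd1 they were the only 3 of the 20 called in that comparison, against 6.63% of all genes tested. The cell-cycle E2F genes E2f2 and E2f8 had log2 fold changes of -7.46 ± 0.66 and -7.29 ± 0.67, and E2f8 was at -6.56 without NSP replicate 1.

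Feedback genes of EGF signalling were low after the week without added EGF. Of 20 listed genes 16 fell and none was called higher, with a median log2 fold change of -1.54 (12 fell without NSP replicate 1, median -1.45). Etv4, an ETS transcription factor induced by ERK, was at 3.18, 2.69 and 4.16 CPM at 1 week and at 99.6, 107 and 106 CPM in NSPs (log2 -4.98 ± 0.29, adjusted p 9.66e-11). The groups were far apart and the NSP libraries close together. Spry4, a feedback inhibitor of receptor tyrosine kinases, fell by 4.09 ± 0.33 on the log2 scale, and Egfr, the EGF receptor, by 1.28 ± 0.13. Dusp6, the ERK phosphatase, was at 95.9, 67.3 and 102 CPM against 375, 155 and 150 CPM (log2 -1.36 ± 0.44, adjusted p 0.0123). Egr1, an immediate-early factor, had a log2 fold change of -1.86 ± 0.57 (adjusted p 0.00943), but without NSP replicate 1 it was -1.40 with an adjusted p of 0.0564. Errfi1, another feedback inhibitor of the EGF receptor, was at 22.6, 19 and 24.3 CPM against 23.7, 20 and 22.2 CPM and was not called (adjusted p 0.993).

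Among 25 neural stem and progenitor genes, 18 fell and 2 rose (median -1.28). The Notch target Hes5, a repressor of neuronal differentiation, was at 0.0442, 0.164 and 0.0704 CPM at 1 week and at 24.5, 99 and 94 CPM in NSPs (log2 -9.52 ± 0.81, adjusted p 1.23e-08), and its log2 fold change was -10.19 without 1 week replicate 2. The Notch ligand genes Dll1 and Dll3 fell by 3.41 ± 0.26 and 5.34 ± 0.58 on the log2 scale, the receptor gene Notch1 by 0.81 ± 0.23. Fabp7, the brain fatty acid binding protein of radial glia, was at 223, 188 and 215 CPM against 2844, 2147 and 2133 CPM (log2 -3.51 ± 0.35, adjusted p 9.50e-08). Other genes used to mark progenitors kept high levels. Nes, the intermediate filament nestin, was at 1109, 797 and 1208 CPM at 1 week and at 1798, 1055 and 1127 CPM in NSPs, and the groups overlapped (log2 -0.35, adjusted p 0.291). Vim was not called either (log2 0.22, adjusted p 0.203). Sox2, which maintains neural stem cells, fell by 0.46 on the log2 scale to a mean of 241 CPM. Msi1, an RNA-binding protein of neural stem cells, rose by 2.13 ± 0.28 and Sox1, a relative of Sox2, by 0.71 ± 0.15. Cd44, the hyaluronan receptor, was not called (log2 -0.12, adjusted p 0.791), and without NSP replicate 1 its difference was positive, at 0.31.

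Genes that mark astrocytes changed in both directions. Of 25 astrocyte genes 24 were tested, of which 5 were higher at 1 week than in NSPs, 10 lower and 9 not called (median -0.40, against 0.059 over all genes tested), and without NSP replicate 1 the counts were 4 and 11. The median ran from -0.63 without 1 week replicate 3 to -0.24 without NSP replicate 2. Clu (ENSMUSG00000022037, chr14:65968483-65981547, plus strand), the secreted chaperone clusterin, was at 547, 488 and 499 CPM at 1 week and at 4.12, 7.85 and 7.40 CPM in NSPs (log2 6.30 ± 0.24, adjusted p 8.55e-13). Gpld1, a phospholipase that releases GPI-anchored proteins, was at 225, 188 and 214 CPM against 3.74, 6.86 and 7.96 CPM (log2 5.07 ± 0.21, adjusted p 2.42e-12). In both genes the groups lay far apart. Kcnj10, the inward rectifier Kir4.1 through which astrocytes buffer potassium, was at 458, 817 and 384 CPM against 149, 112 and 99 CPM (log2 2.20 ± 0.28, adjusted p 2.49e-06). Mlc1 (1.25) and Hepacam (0.43), which together form an astrocyte membrane complex, rose as well.

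Other astrocyte genes fell. S100b, a calcium-binding protein, was at 12.3, 12.2 and 17.6 CPM at 1 week and at 116, 120 and 116 CPM in NSPs (log2 -3.07 ± 0.20, adjusted p 3.43e-10), and all 3 libraries at 1 week lay below all NSPs. The secreted matrix protein Sparcl1 (log2 -4.08 ± 0.55), the aldolase Aldoc (-2.16 ± 0.18), the folate enzyme Aldh1l1 (-1.86 ± 0.32) and the receptor Fgfr3 (-1.82 ± 0.17) also fell. The glutamate transporters Slc1a2 and Slc1a3 were at 248 to 298 CPM against 422 to 434 CPM and at 1800 to 2264 CPM against 2791 to 3381 CPM, with log2 fold changes of -0.66 ± 0.23 and -0.56 ± 0.17 (adjusted p 0.0172 and 0.00779). Without 1 week replicate 1 the adjusted p of Slc1a2 was 0.0583. Glutamine synthetase (Glul), at 412 to 538 CPM against 506 to 572 CPM, was not called (adjusted p 0.413).

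Gfap (ENSMUSG00000020932, chr11:102887336-102900912, minus strand) was not called at 1 week. It was at 55.9, 52.7 and 81.6 CPM at 1 week and at 11.6, 37.3 and 32.4 CPM in NSPs, so that the groups did not overlap, with a log2 fold change of 1.22 ± 0.56 and an adjusted p of 0.0684. The untreated means were 899 CPM at 24 h and 2432 CPM at 72 h, and the level at 1 week was lower than at 72 h by 5.26 ± 0.65 on the log2 scale (adjusted p 5.59e-05). The mean was also highest at 72 h for Slc14a1, a urea transporter, which was at 0.444, 1.54 and 0.967 CPM in NSPs, a mean of 14.3 CPM at 72 h, and 0.574, 0.329 and 1.06 CPM at 1 week (log2 against 72 h -4.49, adjusted p 6.80e-06). Gja1, the gap junction protein connexin 43, was at 123, 116 and 119 CPM at 1 week, 112, 302 and 287 CPM in NSPs and a mean of 540 CPM at 72 h (log2 against 72 h -2.18, adjusted p 0.0228). This call was lost without any 1 of the 1 week libraries (adjusted p 0.0812 to 0.0872), without 72 h replicate 2 (0.0771) and without the 72 h library that has no number (0.06), and it was 0.0907 with the replicate block. Aqp4, the water channel of astrocyte endfeet, likewise was at a mean of 871 CPM at 72 h and at 209, 184 and 210 CPM at 1 week (log2 -2.12, adjusted p 0.00254), with 55.6, 208 and 213 CPM in NSPs. Of the 24 astrocyte genes tested, 11 were lower and 2 higher at 1 week than at 72 h, against 3.96% and 2.68% of all genes tested. Apoe, the main brain apolipoprotein, was at 1163, 759 and 1064 CPM at 1 week and at 313 CPM in NSP replicate 1 and 1268 and 1117 CPM in the others, and was not called (adjusted p 0.794).

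**Figure D3:**
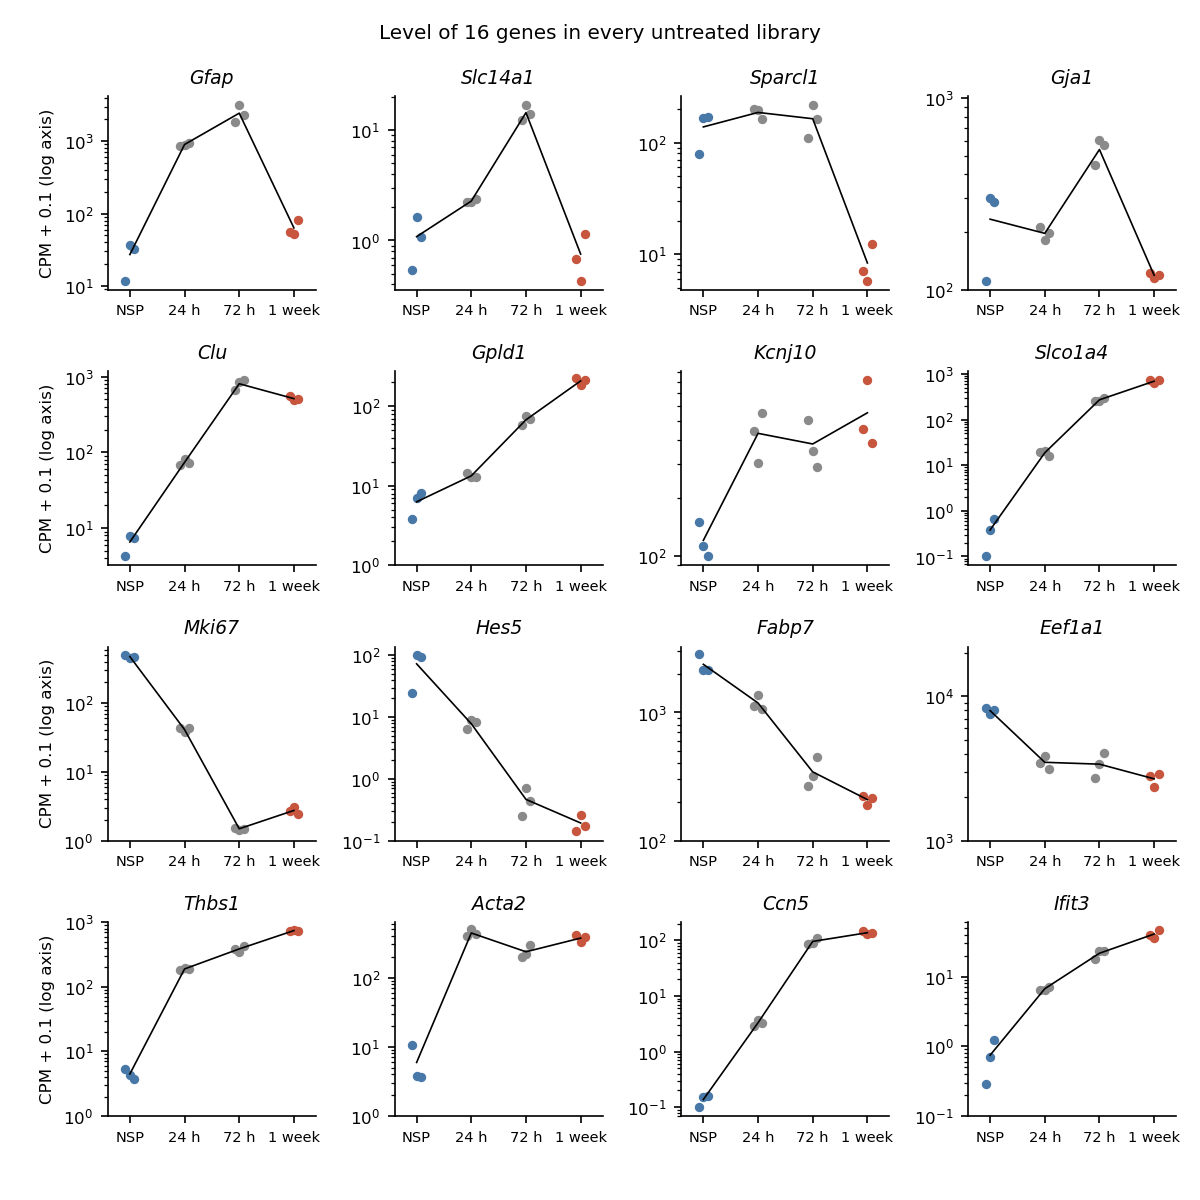
Level of 16 genes (CPM plus 0.1, log axis) in the 12 untreated libraries, by time of differentiation, with 3 points per group and lines joining the means. Gfap, Slc14a1 and Gja1 peak at 72 h and are lower again at 1 week, Hes5 and Fabp7 decline towards their lowest mean at 1 week, and Gpld1, Slco1a4, Thbs1 and Ifit3 have their highest mean at 1 week.

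Of 21 tested genes reported to mark reactive astrocytes, 6 were higher at 1 week than in NSPs and 1 was lower. Over all genes tested the shares were 29.6% higher and 29.1% lower. The number higher depended on the processing, at 10 of 21 with library totals, 9 of 24 with DESeq2, 13 of 24 without a filter on low counts and 8 of 15 with both groups fitted alone, and 1 was lower in each. The median log2 fold change was 1.11, and 0.53 when Lcn2 and Steap4, whose NSP libraries were all at 0, were set to their bounds, and it was 0.54 without 1 week replicate 1. Cp, the copper-binding ferroxidase ceruloplasmin, was at 836, 744 and 944 CPM at 1 week and at 64.8, 103 and 109 CPM in NSPs (log2 3.19 ± 0.19, adjusted p 1.01e-10). Tm4sf1, a surface protein of the tetraspanin-like L6 family, was at 168, 148 and 157 CPM against 1.52, 0.769 and 0.74 CPM (log2 7.30 ± 0.35, adjusted p 6.71e-12). In both the groups were far apart. Against 72 h, none of the 21 was called higher at 1 week and 12 were lower, with 2.68% and 3.96% over all genes tested. The 12 include Aspg (-4.81), Serpina3n (-4.08) and Osmr (-2.79), the oncostatin M receptor. Lcn2 is also among them, with 1 read in the 3 libraries at 1 week and a mean of 1.86 CPM at 72 h.

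Of 20 complement genes 12 were tested, of which 10 rose and 2 fell (7 to 9 rose with 1 library left out, the fewest without NSP replicate 3). Cd59a, which blocks the membrane attack complex, was at 20.6, 19.5 and 20.6 CPM at 1 week and at 0.127, 0.165 and 0.171 CPM in NSPs (log2 6.96 ± 0.43, adjusted p 1.85e-10). The protease genes of the first component and the gene of their inhibitor rose, C1ra by 5.35 ± 0.46, C1s1 by 5.18 ± 0.48 and Serping1 by 3.47 ± 0.33 on the log2 scale. C3, the central component, was at 6.71, 11.3 and 9.93 CPM against 0.444, 0.0549 and 0 CPM, with a mean of 116 CPM at 72 h. C4b stood at a mean of 498 CPM at 72 h and at 11.1, 13.4 and 21 CPM at 1 week (log2 -5.05, adjusted p 4.40e-06). The genes for C1q, made by microglia in brain, were at 0 in all 6 libraries.

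Among 20 tested genes of the interferon response and MHC class I presentation, 10 rose and 2 fell (median 0.66), and 8 or 9 rose and 0 to 2 fell with 1 library left out. Ifit3, an antiviral protein induced by interferon, was at 39.1, 35.9 and 46.8 CPM at 1 week and at 0.19, 0.604 and 1.14 CPM in NSPs (log2 5.93 ± 0.36, adjusted p 1.49e-10), and at 6.60 on the log2 scale without NSP replicate 3. The cytosolic RNA sensors Ifih1 (2.44 ± 0.38) and Ddx58 (1.38 ± 0.17) and the MHC class I genes H2-D1 (1.66 ± 0.27) and H2-K1 (0.96 ± 0.35) rose. Irf7, Irf9 and Stat2, factors that drive the response, were not called. Gbp3 was at 34.3 CPM in NSP replicate 1 and fell (log2 -0.85, adjusted p 0.0167), and its adjusted p without that library was 0.167. Interferon-stimulated promoters are known for repeats of GAAA that STAT and IRF proteins bind. A pair of GAAA letters with 2 bases between them was found on either strand in the 250 bases before the start of 7 of the 18 genes matched, B2m, Gbp2, Gbp3, Ifit1, Ifit3, Isg15 and Stat2, and in 2.98% of all windows. Of these 7 genes, Ifit1 and Ifit3 were called higher. The sequence before Ifit3 is shown with both matches in capitals, as their reverse complements.
Ifit3, chr19:34583279-34583528, plus strand: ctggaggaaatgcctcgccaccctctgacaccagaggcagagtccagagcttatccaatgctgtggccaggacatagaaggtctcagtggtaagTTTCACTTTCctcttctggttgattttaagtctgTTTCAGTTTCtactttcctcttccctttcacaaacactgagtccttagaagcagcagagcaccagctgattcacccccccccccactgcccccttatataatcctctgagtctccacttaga

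Genes of the contractile cytoskeleton rose. Of 20 genes of actin and contraction, 16 rose and 3 fell, with a median log2 fold change of 2.29 (2.14 with Actg2, at 0 in NSPs, set to its bound). Acta2, smooth muscle actin, was at 408, 323 and 381 CPM at 1 week and at 10.3, 3.62 and 3.53 CPM in NSPs (log2 6.00 ± 0.64, adjusted p 2.39e-07), and at 6.69 on the log2 scale without NSP replicate 1. Myl9, a regulatory light chain of myosin, was at 387, 305 and 369 CPM against 16.4, 5.99 and 5.97 CPM (log2 5.23 ± 0.54, adjusted p 1.51e-07). In both genes NSP replicate 1 was the highest of the NSPs and still far below 1 week. Acta1, skeletal muscle actin, had 147 reads at 1 week and 3 in NSPs, a ratio of 45.8 (95% exact interval of 15.4 to 225, for counting error only). Flna, the actin crosslinker filamin A, was at 3228, 2989 and 3377 CPM against 707, 513 and 546 CPM (log2 2.44 ± 0.25, adjusted p 1.10e-07). The members that fell were Tagln2 (-3.54 ± 0.24), Mylk, the myosin light chain kinase (-2.96 ± 0.32), and Zyx, of focal adhesions (-0.91 ± 0.16). Compared with 72 h, 7 of the 20 were higher at 1 week and 1 lower, against 2.68% and 3.96% of all genes tested. Serum response factor is known to act on such genes through the CArG box. This box was found in 5 of the 17 genes matched (Acta1, Cnn2, Myl9, Srf and Vcl) and in 1.47% of all promoter windows. These 5 rose, but so did 16 of all 20 genes on the list, and a link to the box was not tested. The box is shown in capitals before Myl9, up to the first annotated base of the gene.
Myl9, chr2:156775214-156775419, plus strand: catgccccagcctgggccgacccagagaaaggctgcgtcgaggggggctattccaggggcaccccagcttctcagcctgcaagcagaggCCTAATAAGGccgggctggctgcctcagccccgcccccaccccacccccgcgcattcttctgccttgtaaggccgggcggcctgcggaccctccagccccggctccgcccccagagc

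In the extracellular matrix, 9 of 27 tested genes rose and 13 fell. Thbs1, thrombospondin 1, a secreted glycoprotein through which astrocytes promote synapse formation, was at 731, 772 and 728 CPM at 1 week and at 5.27, 4.17 and 3.70 CPM in NSPs (log2 7.41 ± 0.58, adjusted p 3.85e-09). The fibrillar collagen genes Col5a1 (3.12 ± 0.26), Col11a1 (2.02 ± 0.21) and Col5a2 (1.45 ± 0.19), fibronectin (Fn1, 2.50 ± 0.36) and Sparc (2.99 ± 0.19) rose. Of the members known from basement membranes, which were picked from the list after their values were seen, Lama1 fell by 6.27 ± 0.55, Col4a1 by 3.86 ± 0.28, Nid1 by 3.40 ± 0.69 and Col4a2 by 2.53 ± 0.31 on the log2 scale, and the laminin chains Lamb2 (1.50 ± 0.20) and Lamc1 (0.87 ± 0.19) rose. Ncan, a chondroitin sulphate proteoglycan, was at 68, 83.9 and 68.2 CPM against 1039, 1399 and 1400 CPM (log2 -4.12 ± 0.36, adjusted p 1.64e-08), and the log2 fold changes of Vcan, Cspg5 and Bcan, of the same kind, were -3.94, -2.90 and -2.50. Tnc, tenascin C of the stem cell niche, fell by 3.12 ± 0.46. The mean of Ncan was highest at 24 h, at 3464 CPM.

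Targets of TGF-beta and BMP signals were also measured. Of 16 tested genes 9 rose and 3 fell, with a median of 1.51. The median moved under most alternatives that tested other genes, to 0.875 with both groups fitted alone (15 tested), 0.92 where each library had to reach 10 counts (12 tested), 0.72 to 0.975 with 1 library left out (17 or 18 tested, 8 or 9 rises), and 0.30 with DESeq2, 0.37 with no filter on low counts and 0.38 with at least 5 counts in total, when all 20 were tested and 9 rose and 4 fell. Ccn1, a matricellular protein, was at 166, 138 and 172 CPM at 1 week and at 6.98, 5.99 and 6.83 CPM in NSPs (log2 4.58 ± 0.22, adjusted p 7.12e-12). Its relative Ccn2 had no read in the 3 NSP libraries and 155 reads at 1 week, at least 16-fold higher when 3 counts per library are taken as the floor. Id4 (2.57 ± 0.27) and Id1 (0.85 ± 0.27), inhibitors of basic helix-loop-helix factors, rose, and Id3 was at 24.8, 20.6 and 26.3 CPM against 90.4, 153 and 145 CPM (log2 -2.43 ± 0.28, adjusted p 6.60e-07). The pathway's inhibitors Smad6 (3.35 ± 0.42) and Bambi (2.82 ± 0.30) rose, and Skil, another repressor, fell by 0.91 ± 0.19.

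Genes of motile cilia, the beating organelles of ependymal cells, rose. Of 23 tested, 19 rose and 1 fell (median 2.70). Foxj1, the factor that switches on the motile cilium programme, was at 238, 186 and 212 CPM at 1 week and at 18.9, 32.8 and 31.9 CPM in NSPs (log2 2.93 ± 0.22, adjusted p 2.09e-09). The axonemal dynein heavy chain Dnah9 was at 60.7, 76.5 and 58 CPM against 1.21, 1.37 and 1.42 CPM (log2 5.60 ± 0.37, adjusted p 3.77e-10), and Cfap44, a tether of dynein, at 120, 156 and 122 CPM against 2.48, 3.24 and 4.61 CPM (log2 5.26 ± 0.39, adjusted p 1.66e-09). All libraries at 1 week lay above all NSPs for these 3 genes. Hydin, of the central pair, fell to a mean of 0.736 CPM (-3.06 ± 0.42). Mcidas, which starts centriole amplification, had 0 reads at 1 week, and Spag17, another central pair gene, had none either, which at 3 counts per library allows up to 0.169 CPM. Among 12 genes of choroid plexus and ependyma, 5 of 7 tested rose, Foxj1 among them, and their summed level was 224 to 282 CPM at 1 week against 22.3 to 37.4 CPM in NSPs, most of it from Foxj1 in both groups. Folr1, a folate receptor, had 1270 reads at 1 week and 1 in NSPs. Ttr, the defining transcript of choroid plexus, was at 0.164 to 0.352 CPM at 1 week, and Clic6 and Tmem212 were at 0 in all 6 libraries.

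Of 19 tested genes that handle glutamate and GABA, 12 fell and 2 rose (median -0.93), and 11 or 12 fell and 1 to 3 rose with 1 library left out. Slc6a11, the glial GABA transporter GAT-3, was at 29.1, 33.6 and 28.5 CPM at 1 week and at 457, 590 and 545 CPM in NSPs (log2 -4.12 ± 0.30, adjusted p 1.23e-09). The metabotropic glutamate receptor Grm5 was at 5.96, 6.08 and 7.04 CPM against 440, 416 and 447 CPM (log2 -6.10 ± 0.27, adjusted p 3.83e-12), and its 72 h mean was 49.3 CPM. Neither gene's groups came near each other. Grm3, another metabotropic receptor, fell (-3.98 ± 0.25), and the glutamine transporter Slc38a1 rose (2.04 ± 0.24).

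Glycolysis showed no common direction, with 8 of 23 genes higher, 8 lower and a median of 0.072. The phosphofructokinase isoform Pfkp was at 126, 106 and 134 CPM at 1 week and at 6.98, 8.07 and 6.71 CPM in NSPs (log2 4.07 ± 0.17, adjusted p 2.04e-12), Pfkm rose (1.05 ± 0.14), and Pfkl was not called. The glucose transporter Slc2a1 (2.06 ± 0.17), the lactate transporter Slc16a1 (2.79 ± 0.18) and the regulator Pfkfb3 (2.72 ± 0.20) rose. The subunits of lactate dehydrogenase moved in opposite directions. Ldha was at 124, 94.7 and 115 CPM against 348, 362 and 387 CPM (log2 -1.72 ± 0.16, adjusted p 2.85e-08), and Ldhb at 559, 483 and 492 CPM against 232, 294 and 302 CPM (log2 0.89 ± 0.15, adjusted p 5.04e-05). Of 24 nuclear genes of oxidative phosphorylation 19 fell and none was called higher (median -0.77). Of the 13 protein genes of the mitochondrial genome 9 were tested and 5 fell (median -1.31). The transcript mt-Co1 was at 3579, 2948 and 4251 CPM against 9878, 9626 and 9396 CPM (log2 -1.42 ± 0.24, adjusted p 4.93e-05). The levels of mt-Co2, mt-Atp6, mt-Atp8 and mt-Nd4l were at 0.444 CPM or less in all 6 libraries, and how reads with several matches were counted is not given in the sources used here.

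Sterol synthesis was lower. Of 23 genes of the cholesterol pathway 18 fell and 1 rose (median -1.85). None was called between 72 h and 1 week, where 6.63% of all genes tested were. Lss, which closes the sterol ring, was at 27.6, 26.4 and 30.9 CPM at 1 week and at 360, 132 and 147 CPM in NSPs (log2 -2.91 ± 0.36, adjusted p 1.68e-06), and without NSP replicate 1, the highest library for most of these genes, at -2.31. Fdps, which makes farnesyl pyrophosphate, fell by 3.07 ± 0.42. Without that library 15 genes fell and 2 rose, with a median of -1.51. Hsd17b7, a later reductase of the pathway, rose (2.14 ± 0.29, and 2.76 without NSP replicate 1), and 4 genes, squalene epoxidase (Sqle) among them, were not called. The cholesterol exporter Abca1 was at 1248, 1282 and 1380 CPM against 56.4, 308 and 300 CPM (log2 2.56 ± 0.42, adjusted p 4.42e-05). Cd36, a fatty acid transporter, fell by 4.47 ± 0.38. The factor NF-Y, a partner of the sterol sensor SREBP, binds CCAAT, which was found in each of the 15 sterol genes with a matched promoter, including genes that were not called. The sequence before Lss is shown up to the first annotated base, with the reverse complement of CCAAT in capitals.
Lss, chr10:76531355-76531587, plus strand: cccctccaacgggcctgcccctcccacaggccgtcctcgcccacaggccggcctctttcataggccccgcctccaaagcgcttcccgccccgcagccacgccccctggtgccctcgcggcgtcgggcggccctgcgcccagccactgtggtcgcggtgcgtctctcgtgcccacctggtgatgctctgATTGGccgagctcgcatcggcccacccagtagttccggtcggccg

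Of 24 ribosome biogenesis genes 22 fell and none was called higher (median -0.79), and 16 fell without NSP replicate 1, with a median of -0.48. Npm1, nucleophosmin of the nucleolus, was at 216, 172 and 233 CPM at 1 week and at 1046, 674 and 695 CPM in NSPs (log2 -1.96 ± 0.19, adjusted p 8.07e-08). Per kilobase of exon, the most abundant nuclear protein-coding transcript of NSPs was Eef1a1, the elongation factor, at 3193 CPM per kilobase, which had 1075 at 1 week (log2 -1.57 ± 0.16, adjusted p 8.69e-08). The ribosomal protein genes Rplp1, Rplp0, Rpl8 and Rps3a1 ranked from 6 to 13 in NSPs and from 23 to 55 at 1 week. Fabp7 ranked 2 in NSPs and 80 at 1 week. At 1 week the highest levels were those of Actb, Eef1a1, Scd2, a desaturase, Mlc1 and Psap, the precursor of lysosomal saposins. Actb and Scd2 were not called (log2 0.07 and 0.05). The metallothionein genes Mt1 and Mt3 rose from 92.3 and 69.2 to 635 and 501 CPM per kilobase. Of 25 lysosomal genes 10 rose and 5 fell (8 and 7 without NSP replicate 1), with Ctsl, cathepsin L, at 340, 270 and 330 CPM against 70.1, 113 and 113 CPM (log2 1.67 ± 0.19, adjusted p 4.38e-07).

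**Figure D4:**
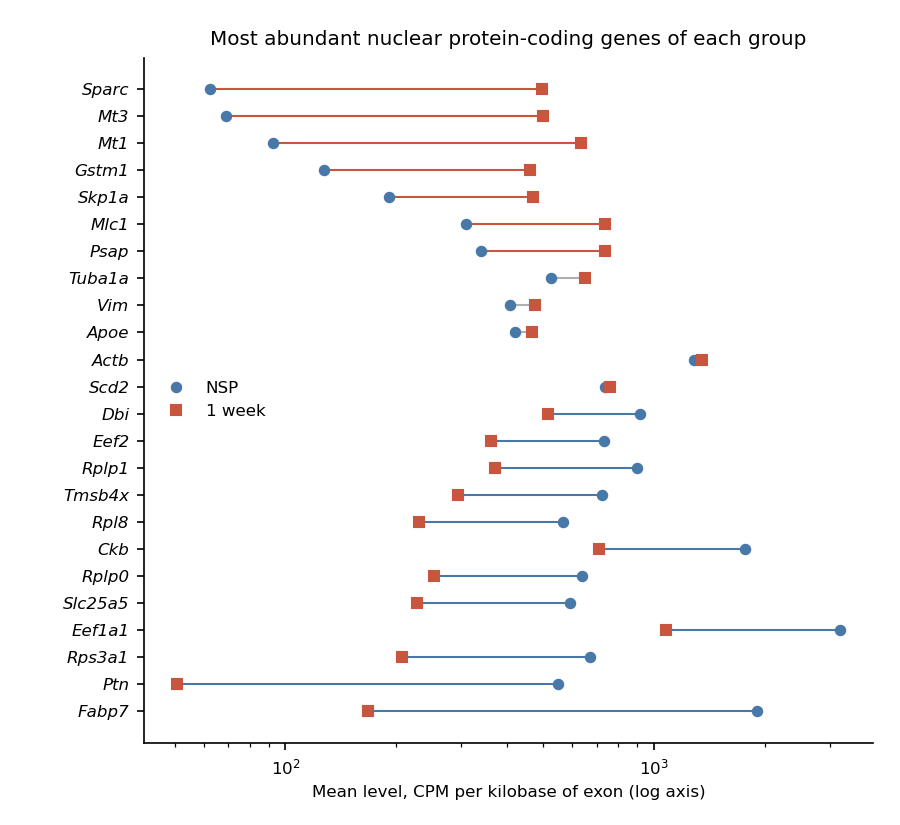
Mean level of the nuclear protein-coding genes that ranked among the 15 most abundant in either group, in CPM per kilobase of exon on a log axis, for NSPs (circles) and 1 week (squares), n = 3 libraries each. Lines are red for genes called higher at 1 week, blue for genes called lower and grey for genes not called. Fabp7 and Ptn move far to the left, from 1899 to 167 and from 550 to 50.8. Eef1a1 moves less far, from 3193 to 1075, and Sparc, Mt1 and Mt3 move to the right.

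Among protein-coding genes above 5 CPM on average whose groups did not overlap, the largest rises were in genes nearly silent in NSPs. Slc22a14, an organic cation transporter family member, Fgfbp1, an FGF-binding protein, and Defb1, a beta-defensin, had no read in the 3 NSP libraries and 2441, 2135 and 1407 reads at 1 week, at least 253-fold, 225-fold and 147-fold higher. Sh3rf2, a ubiquitin ligase, was likewise at 0 in NSPs and at 12.5, 12.8 and 14.7 CPM at 1 week. Slc22a14 overlaps several other genes, Oxsr1 and Myd88 among them, to which its reads may belong. Ccn5, a matricellular protein, was at 148, 130 and 135 CPM against 0, 0.0549 and 0.0569 CPM. Col8a1, a short-chain collagen, had 1917 reads at 1 week and 1 in NSPs, and Fmod, the collagen-binding fibromodulin, 3394 and 3. Slco1a4, an organic anion transporter also known from brain endothelium, was at 727, 632 and 735 CPM against 0, 0.275 and 0.569 CPM (log2 11.19 ± 0.72, adjusted p 2.66e-10), with means of 18.7 CPM at 24 h and 272 CPM at 72 h, and its log2 fold change was 12.14 without NSP replicate 3. The largest falls were in Hes5, in Myt1, a zinc finger factor of neural and oligodendrocyte progenitors, in Neil3, a DNA glycosylase, in the replication-dependent histone genes Hist1h3g and Hist1h3b, and in Depdc1b, Ube2c and Depdc1a. Myt1 was at 0.0442, 0.110 and 0.352 CPM at 1 week and at 54.8, 99.7 and 102 CPM in NSPs (log2 -9.11 ± 0.63, adjusted p 7.33e-10), and its log2 fold change was -10.04 without 1 week replicate 3. The histone genes are near-identical copies of each other, so their reads may be split among them.

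Most tested markers of the other brain lineages fell. Of 24 neuronal genes 17 were tested, 11 fell and none was called higher (median -1.87), and with 1 library left out, when 18 or 19 could be tested, 10 or 11 fell and 0 to 2 were called higher. Their summed level was 2696 to 2761 CPM at 1 week and 2446 to 2600 CPM in NSPs, most of it from Map2, a microtubule protein of dendrites, which was at 1850 to 1908 CPM and 1583 to 2075 CPM and was not called. Dcx, the microtubule protein doublecortin of migrating neurons, had no read at 1 week and was at 1.46, 7.14 and 7.05 CPM in NSPs, at least 30.8-fold higher there. Elavl4, a neuronal RNA-binding protein, fell by 4.85 ± 0.41 on the log2 scale. Of 14 tested oligodendrocyte lineage genes 10 fell and 2 rose (median -1.86, or -1.42 with Mbp at its bound). Olig2, a master factor of the lineage that progenitors share, was at 25.8, 22.3 and 24.8 CPM at 1 week and at 444, 397 and 404 CPM in NSPs (log2 -4.09 ± 0.21, adjusted p 1.79e-11). The progenitor genes Pdgfra and Cspg4 were at 5.90 and 67.8 CPM in NSP replicate 1 and at 18.8 to 19.7 and 140 to 144 CPM in the other NSPs, and fell (log2 -2.74 ± 0.35 and -2.83 ± 0.41). Cnp, a myelin enzyme, rose by 1.33 ± 0.20 while Mbp, myelin basic protein, was at 0 in all 3 libraries at 1 week. Of 26 genes of axon guidance and progenitor adhesion 14 fell and 5 rose, with the netrin receptor Dcc at 0.353, 0.493 and 0.282 CPM against 22.7, 29.4 and 29.2 CPM (log2 -6.13 ± 0.35, adjusted p 6.86e-11) and the semaphorin Sema3c at 222, 203 and 230 CPM against 10.8, 11.4 and 10.1 CPM (log2 4.34 ± 0.21, adjusted p 7.26e-12).

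Cells from outside the neural lineage were sought by their markers. Of 15 microglial genes 5 were tested and 1 was higher. C1qa, Itgam and Ly86 were at 0 in all 6 libraries. The 12 endothelial genes summed to 639 to 742 CPM at 1 week against 6.54 to 8.69 CPM in NSPs, while Slco1a4 alone was at 632 to 735 CPM at 1 week, and Cldn5 and Ly6c1, which define brain endothelium, were at 0 in all 6 libraries. Of the mural and fibroblast genes 7 of 17 were tested, 1 rose and 3 fell. The gene that rose, Rgs5, had 16 reads at 1 week and 3 in NSPs, a ratio of 4.99 (95% exact interval of 1.43 to 26.7), and no gene of the list was called higher without 1 week replicate 2 or 3 or NSP replicate 1 or 2. Those that fell include Cspg4 and Pdgfra, which are also on the oligodendrocyte list. With at least 5 counts in total 14 could be tested, 4 rose and 3 fell, and the median log2 fold change was 0.58 against -1.23, which was -0.55 without NSP replicate 2. The sum over the list was 84.8 to 107 CPM at 1 week against 183 to 327 CPM in NSPs, Lum was at 0 in all 6 libraries, and the collagen genes Col1a1 and Col1a2 were at 0.494 CPM or less. Pdgfrb, a receptor of pericytes, was at 0.309, 0.603 and 0.282 CPM at 1 week and at 0.0635, 0.0549 and 0 CPM in NSPs.

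Annotation classes differed in direction. Among 13784 protein-coding genes tested, 25.9% rose and 37.5% fell. Among 783 lincRNA genes 38.1% rose and 14.6% fell, among 1278 antisense genes 37.2% and 8.22%, and among 1098 processed pseudogenes 32.8% and 12.8%. Genes annotated as long noncoding RNA took 5.40 to 7.47% of the counts at 1 week and 3.08 to 3.88% in NSPs, and mitochondrial genes 1.60 to 2.09% against 3.00 to 3.40%. With the strand setting of the counting unknown, part of the antisense reads may come from the genes opposite, and this was not tested.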

How the data were processed

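The 18 libraries were made with a stranded total RNA kit after removal of ribosomal RNA. The authors give RNA quality numbers (RQN) from 3.4 to 10, without saying which library had which. The part of RNA quality in the results was not tested. Per the labels and methods, the authors trimmed reads with Trim Galore after FastQC, aligned them with STAR to mm10, used SAMtools, and counted reads per gene with featureCounts. The deposited values are raw counts per gene and library, not normalized. The handling of reads with several matches and the strand setting are not given in the sources used here. Totals per library ran from 13878690 to 22549627 at 1 week and from 17326245 to 19045824 in NSPs, which sets the precision of low genes, and intervals and floors cover counting error only, since no molecular identifiers were used. Of 54838 gene IDs, 54809 matched GENCODE M21 on GRCm38.

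Counts were tested with edgeR 4.0.16 (R 4.3.3) by quasi-likelihood F tests on a mean per group over all 18 libraries, with TMM factors, the default filter on low counts, and Benjamini-Hochberg adjustment over all 20067 genes tested. Levels are CPM with TMM factors. SE is the log2 fold change divided by the square root of F. Groups came from the labels, and the 72 h column whose number matches no title was assigned to its group only. The script was tested on simulated data. Promoter sequences are RefSeq windows on GRCm38.p6. No gene list was tested. Lists are given by counts and medians beside all genes.

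The comparison, the 29 gene lists (590 genes) and the naming rule were chosen with earlier results of these data known. The rule named, per list, the 2 largest rises and 2 largest falls, the 8 largest rises and falls of all genes, 11 culture markers, and the 5 most abundant genes per group. Other list members, and the promoters printed, were chosen as examples after their values were seen. Alternatives were RLE factors, library totals, other filters, a fit of both groups alone, the replicate number as a block, DESeq2 1.42.0, and leaving out each library. The filter of at least 5 counts in total and leaving out 72 h libraries were added after the data were seen. Results for some list members are not reported here, although those genes stay in the fits and counts.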

Additional observations from a re-analysis of the deposited data

Results flagged for a closer look

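For the genes named here, the difference from NSPs at 1 week was not the one at 72 h, by the direct edgeR comparison of 1 week with 72 h (adjusted p under 0.05). Both differences share the same NSP libraries, so what follows is the log2 fold change of 1 week over 72 h with its adjusted p.

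Lower at 1 week were the astrocyte genes Gfap (-5.26, adjusted p 5.59e-05), Slc14a1 (-4.49, 6.80e-06), Sparcl1 (-4.33, 8.70e-05), Gja1 (-2.18, 0.0228), Aldoc (-1.14, 0.000485) and Clu (-0.65, 0.0386). So were the lipid genes Cd36 (-3.96, 5.53e-06) and Dbi (-0.79, 0.00569), the glutamate receptor Grm5 (-2.96, 1.64e-06), the BMP target Id3 (-2.58, 2.05e-05) and the hyaluronan receptor Cd44 (-1.41, 0.0191). The guidance receptors Dcc (-1.59, 0.0271) and Nrp2 (-1.29, 0.00146), the myelin enzyme Cnp (-0.93, 0.0072) and Tagln2 (-0.84, 0.0378) were also lower.

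Higher at 1 week were Acta1 (2.89, 0.00146), the collagens Col8a1 (1.27, 0.00988) and Col5a1 (1.24, 0.00385), the matrix protein Ltbp2 (1.98, 0.0114), Fgfbp1 (2.58, 3.05e-05), Sh3rf2 (1.77, 0.00257) and Defb1 (1.49, 0.00372). Gpld1 (1.63, 2.05e-05), Cdkn1a (1.19, 0.00564), Ifit3 (0.92, 0.0412), Scd2 (0.83, 0.000191) and Sox1 (0.64, 0.0146) were higher too. Scd2 stood at 4419, 4222 and 3812 CPM at 1 week and at a mean of 2342 CPM at 72 h. Of these genes, Clu, Sox1, Tagln2, Ltbp2, Ifit3, Dcc, Cnp, Cd44, Gja1, Dbi and Col8a1 each missed the threshold under at least 1 alternative. Clu, Tagln2, Ifit3 and Gja1 did so without any 1 of the 3 libraries at 1 week, and Cd44 (-1.35, adjusted p 0.072) and Col8a1 (1.17, 0.0695) without 72 h replicate 2.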

How the results depend on the processing

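The number of genes called at 1 week against NSPs ranged from 8712 to 12474 over the alternatives with the same threshold, against 11766. With a change of at least 2-fold as a further condition it was 7020, of which 2929 fell. Leaving out 1 library gave 10301 to 11551 calls, DESeq2 12051, and both groups fitted alone 10708. With library totals in place of TMM factors, 6713 genes rose and 5081 fell, so that 56.9% of the calls were rises against 50.5%, and the median of all genes moved by 0.115 on the log2 scale. Same-numbered libraries did not deviate together (correlations -0.152, -0.138 and 0.074), so the numbers were not taken as pairs, and the replicate block gave 11676 calls. Of the 110 genes named by the rule, 3 that were not called changed sign under some alternative. Cd44 (-0.12) was at 0.015 with library totals and 0.0071 where each library had to reach 10 counts, and between -0.33 and 0.31 with 1 library left out, the highest without NSP replicate 1. Actb (0.07) was at -0.00155 and Scd2 (0.05) at -0.0015 without 1 week replicate 1, and Scd2 reached 0.11 without 1 week replicate 3. Gfap passed the threshold with library totals (adjusted p 0.0482) and with both groups fitted alone (0.018), and Gja1 with both groups fitted alone (0.029), and their ranges over the other alternatives with a filter were 0.0575 to 0.233 and 0.0579 to 0.307. Without a filter on low counts Gfap and Gja1 passed (6.64e-14 and 1.2e-09), and the cause was not tested. Depth limits genes under 0.169 to 0.175 CPM, the level of 3 counts per library.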
